A study of Sus scrofa with 24 samples.

Results

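LIPC, ACSL1, G6PC, PCK1, FBP1 and CPT1A are 6 genes of hepatic glucose and fatty acid metabolism, followed here through 4 tissues of the pig. They were taken as the non-control probes whose symbol, in the gene name or the description of the array files, equals a member. These were 6 of the 11171 named genes on the array, and each of the 6 passed the filter on dim probes, which left 9436 named genes. They have 23 probes, of which 22 passed, and each gene is represented by its passing probe with the highest mean over all 24 arrays.

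The samples came from 6 crossbred pigs, 10 weeks old, that had been weaned on day 28, fed without restriction and stunned before exsanguination. Each animal, numbered 68, 69, 70, 71, 73 or 75, gave Liver, Spleen, a piece of jejunum that lacks Peyer's patches (Jejunum) and a piece that holds one (Peyer), so that n = 6 per tissue on 24 single-colour arrays. No animal was treated, and the groups are the 4 tissues. Liver and Spleen were hybridised on 3 slides and Jejunum and Peyer on the other 3, each slide with the samples of 2 animals.

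The liver is the main organ that releases glucose into the blood. PCK1 makes phosphoenolpyruvate from oxaloacetate, FBP1 removes a phosphate from fructose bisphosphate, and G6PC frees glucose from glucose 6-phosphate, a step shared by gluconeogenesis and glycogen breakdown. Fatty acids that enter a cell are activated to coenzyme A esters, among others by ACSL1, and CPT1A passes them to carnitine for entry into mitochondria. LIPC, the hepatic lipase, is secreted and cleaves lipids of circulating lipoproteins. The epithelium of the small intestine also holds gluconeogenic enzymes.

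The 30 bases at the 5′ end of each representative probe, as the array files give them, show which transcript stretch each value comes from, since all 24 values of a gene rest on that 1 probe.
PCK1: tactgtggttccctgcctttacataatttc
FBP1: gctaccttattctggcagtgcatcatacat
G6PC: tatggagttcccactatactgcagtgggtt
ACSL1: gtcaccttggggttttgaatgtttgcttta
CPT1A: cattgcatgtaaatacgatatgctctttgg
LIPC: atctgttcatttttctccaagcaaggttca
The probes are 60 bases long and start at base 2499 (PCK1), 1182 (FBP1), 1481 (G6PC), 4192 (CPT1A) and 516 (LIPC) of the transcript named for them in the array files. No start is given for ACSL1.

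A level below is the log2 signal of a probe after the 75th percentile of its own array is subtracted. A difference is between tissue means on that scale, so 1 unit is 2-fold. Levels of different probes have no common scale, so genes are compared only by their differences between tissues. Calls needed at least a 2-fold difference and a limma p below 0.05 after adjustment over all kept probes. In bulk tissue, fewer cells of a type and less RNA per cell cannot be told apart.

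The 75th percentile spanned 275.4 to 2261.9 signal units over the 24 arrays, with between 60.4% and 75.6% of probes well above background. Precision is set by the 6 arrays per tissue. The tissues bore their markers: the mean level of 7 hepatocyte markers was 8.21 in Liver and between -4.04 and -2.99 in the other tissues. The mean of 8 enterocyte markers was 6.54 in Jejunum, 5.30 in Peyer, -2.75 in Liver and -4.22 in Spleen. The Peyer array of animal 71 stood apart. Its mean of 7 B cell markers was -1.63, against 1.24 to 1.47 on the other 5 Peyer arrays, and its enterocyte mean was 6.54, against 4.81 to 5.36. Its position was noticed after the data were seen. Without it, Peyer minus Liver was -7.94 for LIPC, -5.87 for ACSL1, -6.40 for G6PC, -5.48 for PCK1, -3.80 for FBP1 and -0.19 for CPT1A, and the first 5 of these were still called.

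Of the 6 genes, 5 were called lower in Jejunum than in Liver and none higher, where 16.0% of the 9436 genes were called lower and 17.4% higher, and CPT1A was not called. The same 5 were called lower in Peyer than in Liver, beside 21.4% of all genes lower and 19.2% higher, and in Spleen than in Liver, beside 18.3% and 21.0%. Their groups did not overlap in any of the 3 comparisons, as was the case for 48.8%, 48.1% and 50.4% of all genes. LIPC, 1 of the 5, passed the filter on dim probes through Liver alone, so its call is not separate support. The median difference of the 6 was -4.60 for Jejunum minus Liver, where the median of all genes was -0.01. It was -5.47 in Peyer, beside -0.04, and -6.70 in Spleen, beside 0.11. These medians and the counts above include LIPC. The 6 were chosen as hepatic genes with earlier results of these data known. Their contrast with all genes is thus a description, not a test.

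Between Jejunum and Spleen 4 of the 6 were called higher in Jejunum and 1 lower, beside 15.4% of all genes in each direction, and 4 did not overlap, beside 45.6%. For Peyer minus Spleen 4 were called higher and none lower, beside 10.6% and 14.9%, and 4 did not overlap, beside 31.2%. For Peyer minus Jejunum 2 were called lower and none higher, beside 7.25% and 6.05%, and all 6 overlapped, where 11.1% of all genes did not.

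**Figure D1:**
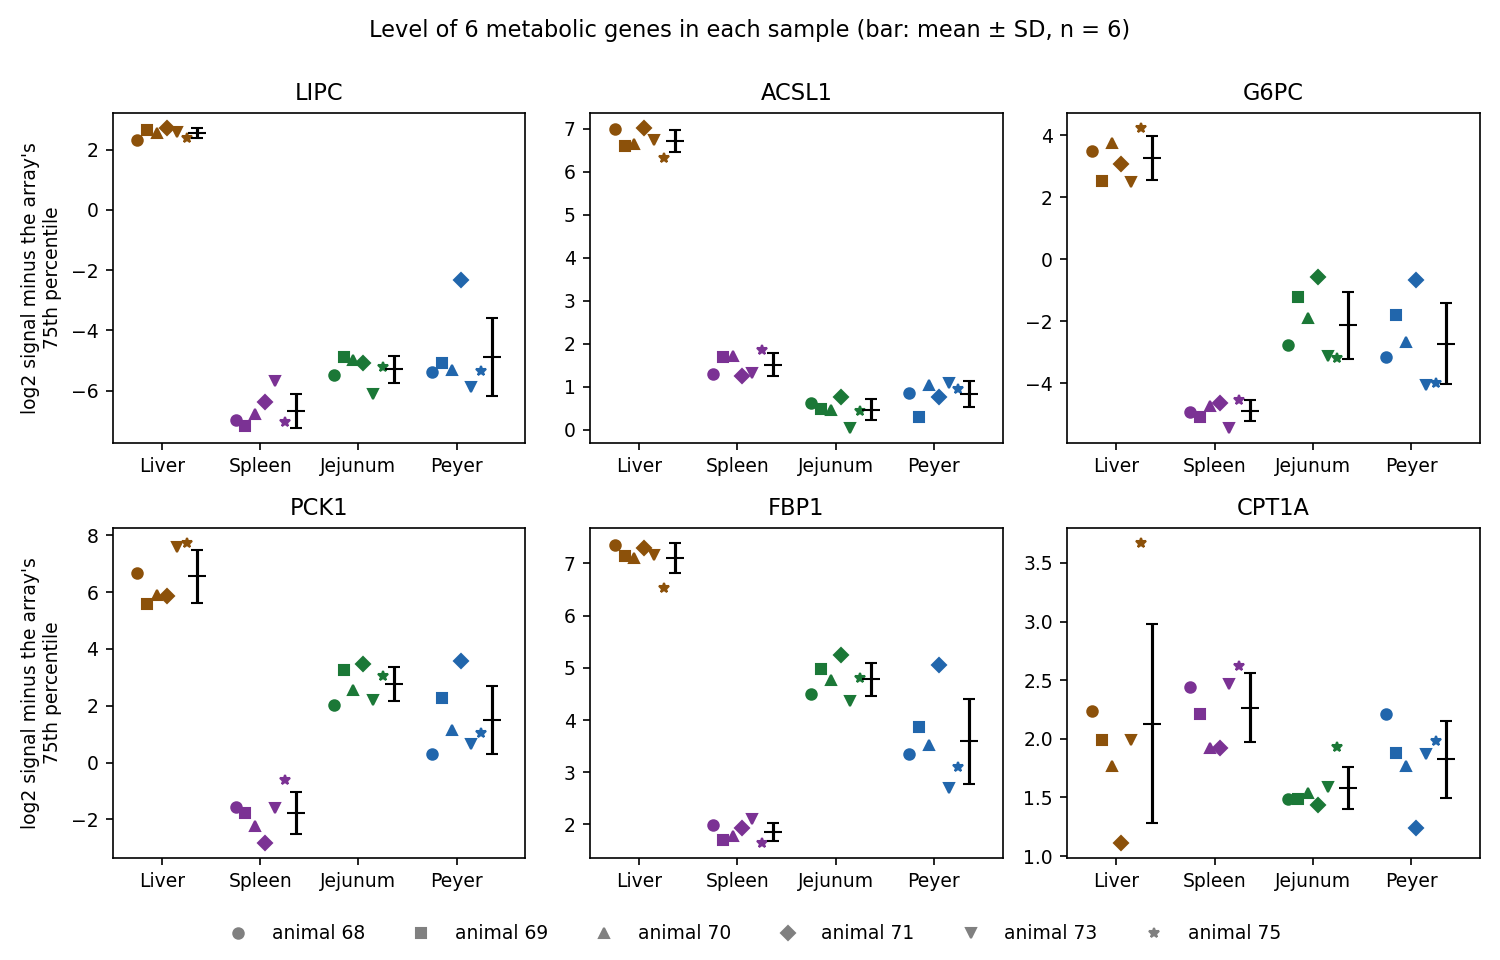
Level of each of the 6 genes in each of the 24 samples (log2 signal minus the 75th percentile of the array, vertical axis, a separate scale per gene), with symbols for the 6 animals and bars for the mean ± SD (n = 6). For 5 genes all Liver samples lie above all others, PCK1 and FBP1 take middle values in Jejunum and Peyer, and CPT1A overlaps across tissues.

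PCK1 was highest in Liver, intermediate in Jejunum and Peyer, and lowest in Spleen. Its lowest, median and highest levels were 5.60, 6.28 and 7.75 in Liver, and 2.02, 2.79 and 3.49 in Jejunum. In Peyer they were 0.29, 1.10 and 3.57, and in Spleen -2.82, -1.69 and -0.62. No Liver sample overlapped another tissue and no Spleen sample overlapped the gut, whereas Jejunum and Peyer overlapped. Jejunum was 13.9-fold below Liver (difference -3.80 ± 0.49 SE, adjusted p = 3.9e-07, limma, n = 6 per tissue) and 23.1-fold above Spleen (4.53 ± 0.49, adjusted p = 2.9e-08, limma), both in 6 of 6 animals. Peyer was 33.4-fold (-5.06, adjusted p = 3.2e-09, limma) and Spleen 322-fold below Liver (-8.33, adjusted p = 3.5e-13). All 6 probes of PCK1 gave the same order of Liver, Jejunum and Spleen. The Liver samples themselves spread over an SD of 0.94, larger than in Liver for 96.7% of all genes.

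FBP1 had the same order of tissues with less spread. The lowest, median and highest levels were 6.53, 7.16 and 7.36 in Liver and 4.37, 4.79 and 5.24 in Jejunum. Peyer gave 2.70, 3.43 and 5.04, and Spleen 1.65, 1.85 and 2.10. Only Jejunum and Peyer overlapped. The gap to Liver in Jejunum was 5.01-fold (-2.32 ± 0.26, adjusted p = 4.3e-08, limma), smaller in estimate than for PCK1, and Jejunum was 7.59-fold above Spleen (2.92 ± 0.26, adjusted p = 1.2e-09, limma). Spleen was 38.0-fold below Liver (-5.25, adjusted p = 1.5e-14, limma), and Peyer 11.4-fold below Liver (-3.51, adjusted p = 3.1e-11, limma). Its 3 probes gave Jejunum minus Liver differences from -2.54 to -2.32.

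G6PC, the last step of glucose release, was highest in Liver, and of the 6 genes it had the largest SD in both gut tissues. The lowest, median and highest levels were 2.49, 3.29 and 4.25 in Liver, and -3.19, -2.32 and -0.57 in Jejunum. Peyer gave -4.04, -2.91 and -0.67, and Spleen -5.44, -4.83 and -4.53. Liver and Spleen each lay apart from the other tissues, and Jejunum and Peyer overlapped. Spleen was near background, with 4 of 6 arrays well above it. Jejunum was 42.0-fold below Liver (-5.39 ± 0.51, adjusted p = 2.2e-09, limma) and 6.79-fold above Spleen (2.76 ± 0.51, adjusted p = 5.7e-05, limma), and Peyer was 63.6-fold below Liver (-5.99, adjusted p = 3.3e-10). With the normexp background Jejunum minus Spleen was 1.23 (adjusted p = 0.016, limma), still called. The Jejunum SD of 1.08 was larger than that of 99.0% of all genes in Jejunum. On the same arrays the enterocyte marker mean spanned 6.33 to 6.77 and the smooth muscle marker mean 4.19 to 5.52. Their part in the G6PC spread was not tested. All 3 G6PC probes were called lower in Jejunum than in Liver and higher than in Spleen. The other probes had no Spleen array well above background, and the dimmest had 3 of 6 Jejunum arrays above it. Their Jejunum minus Spleen differences, 3.84 and 2.08, thus rest on Spleen values near background.

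ACSL1 was lowest in the gut, not in Spleen. Its lowest, median and highest levels were 6.33, 6.69 and 7.03 in Liver and 1.25, 1.51 and 1.85 in Spleen. Jejunum gave 0.05, 0.47 and 0.77, and Peyer 0.29, 0.91 and 1.08. Every Liver sample was above all others, and all Spleen samples were above all gut samples. Jejunum was 76.2-fold below Liver (-6.25 ± 0.16, adjusted p = 6.8e-20, limma), Peyer 59.2-fold (-5.89, adjusted p = 2.1e-19) and Spleen 36.8-fold (-5.20, adjusted p = 1.6e-18). Jejunum was 2.07-fold below Spleen (-1.05 ± 0.16, adjusted p = 3.7e-06, limma, 6 of 6 animals), close to the 2-fold limit: 2 of the 4 ACSL1 probes were called and the range over probes was -1.24 to 0.06. This call was lost with the median of each array as the scale (-0.96), with a model-based (normexp) background (-0.97), with the mean of the probes (-0.80) and without animal 75 (-0.98), and the sign was opposite in the authors' deposited table (2.50).

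CPT1A, the carnitine transferase that controls mitochondrial entry, was not called in any of the 6 comparisons. The lowest, median and highest levels were 1.11, 1.99 and 3.67 in Liver and 1.92, 2.33 and 2.62 in Spleen. Jejunum gave 1.44, 1.51 and 1.93, and Peyer 1.24, 1.87 and 2.21. All tissues overlapped, and the Liver range held all values of the other tissues. Jejunum minus Liver was -0.55 (95% interval -1.11 to 0.01, adjusted p = 0.081, limma), Peyer minus Liver -0.30 (-0.86 to 0.25, adjusted p = 0.32) and Spleen minus Liver 0.14 (-0.42 to 0.70, adjusted p = 0.66). Jejunum minus Spleen was -0.69 (-1.25 to -0.13, adjusted p = 0.032, limma), under 2-fold, with the lower level in Jejunum in 6 of 6 animals. These fits do not pair the samples by animal. With animal as a replicate block the adjusted p was 0.023 for Jejunum minus Liver and 0.0061 for Jejunum minus Spleen (limma), both differences still under 2-fold. Without animal 75, Jejunum minus Liver was -0.31, Peyer minus Liver -0.03 and Spleen minus Liver 0.38, none of them called. The CPT1A probes differed among themselves. In Jejunum 1 of 5 was called lower than in Liver (-1.04 to -0.55), and in Peyer 2 of 5 (-1.29 to -0.30). Against Spleen 3 of 5 were called lower in Jejunum, with a range of -1.24 to -0.69, and the mean of the 5 was called (-1.05, adjusted p = 0.0019, limma). For Peyer minus Spleen 4 of 5 were called lower (-1.49 to -0.44), and their mean was -1.16 (adjusted p = 0.00097, limma).

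LIPC, with 1 probe, was highest in Liver. Its lowest, median and highest Liver levels were 2.31, 2.58 and 2.73, an SD of 0.16 that only 19.0% of genes undercut in Liver. Jejunum gave -6.10, -5.14 and -4.90, Peyer -5.87, -5.33 and -2.32, and Spleen -7.18, -6.88 and -5.68. Liver stood clear of the other tissues, which overlapped one another. The gut and Spleen values lay near background, with 5 of 6 Jejunum, 5 of 6 Peyer and 1 of 6 Spleen arrays well above it. Only in Liver were all 6 arrays well above it, so LIPC passed the filter through the tissue where it is high. Jejunum was 229-fold below Liver (-7.84 ± 0.40, adjusted p = 3.4e-14, limma), Peyer 173-fold (-7.43, adjusted p = 9.6e-14) and Spleen 597-fold (-9.22, adjusted p = 1.5e-15). The size of these folds rests on values near background: with the normexp background the differences were -5.63, -5.88 and -5.69, all still called. LIPC was called higher in Jejunum than in Spleen (1.38 ± 0.40, adjusted p = 0.0051, limma, 5 of 6 animals), and with the normexp background this difference was 0.06.

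Peyer stood above Spleen for the same 4 genes as Jejunum. The difference was 3.27 for PCK1 (9.64-fold, adjusted p = 6.4e-06, limma), 1.74 for FBP1 (3.34-fold, adjusted p = 6.5e-06), 2.17 for G6PC (4.49-fold, adjusted p = 0.00098) and 1.79 for LIPC (adjusted p = 0.00069, 5 of 6 animals). Without the Peyer array of animal 71 these were 2.85, 1.45, 1.76 and 1.28, all still called. With the normexp background the G6PC difference was 0.69 and not called, and that of LIPC -0.19. ACSL1 was lower in Peyer by less than 2-fold (-0.69, adjusted p = 0.00076, limma), and CPT1A was at -0.44 (adjusted p = 0.17). The hepatocyte markers of the gut arrays, -3.67 to -2.68 in Jejunum and -4.67 to -3.48 in Peyer, lay inside the Spleen range of -4.90 to -0.78.

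**Figure D2:**
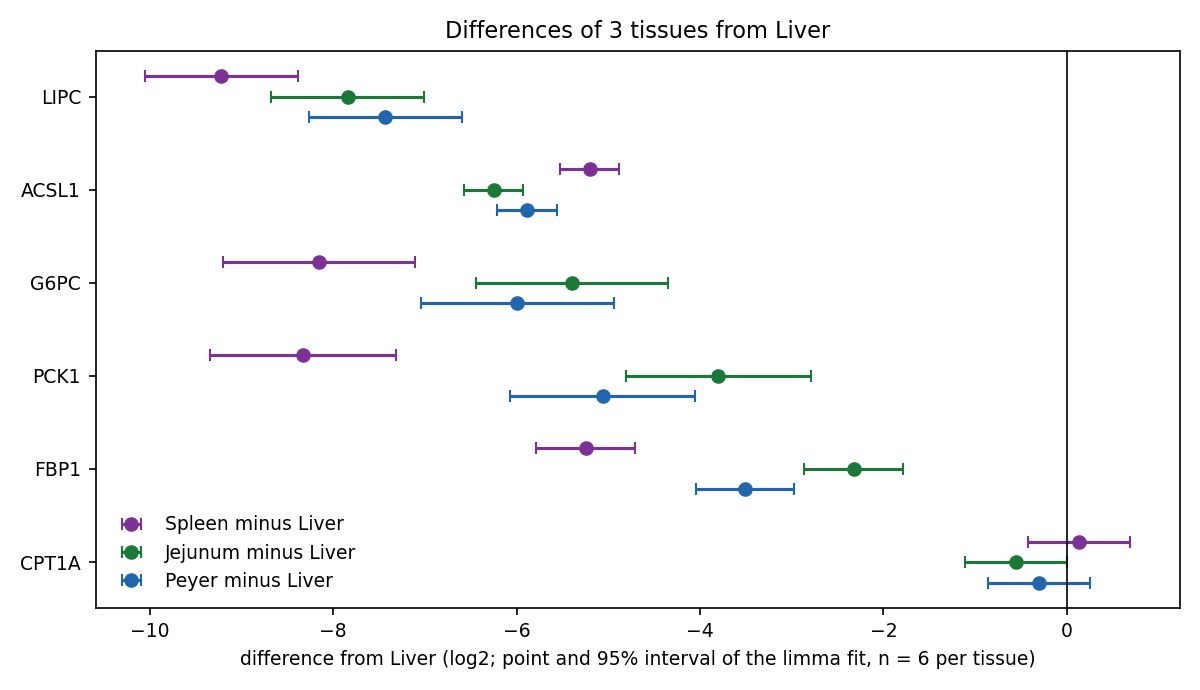
Difference of Spleen, Jejunum and Peyer from Liver for each gene (horizontal axis, log2), as point and 95% interval of the limma fit with n = 6 per tissue. For PCK1, FBP1 and G6PC the gut points lie nearer to Liver than the Spleen point, for ACSL1 the Spleen point is nearest, and CPT1A lies close to 0 in each tissue.

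Jejunum and Peyer lie on other slides than Liver and Spleen, so for 4 of the 6 comparisons tissue and slide set cannot be told apart. In the authors' deposited table the differences of the 5 called genes between Jejunum and Liver were smaller: Jejunum minus Liver was -2.95 for PCK1, -1.65 for FBP1, -3.07 for G6PC, -2.36 for ACSL1, 0.10 for CPT1A and -3.29 for LIPC. The 5 calls and their direction held there. Between Jejunum and Spleen the same table gave larger values for 4 genes: 2.13 for LIPC, 3.27 for G6PC, 4.72 for PCK1 and 3.30 for FBP1. That table also put the enterocyte markers SLC5A1 and SI at 0.68 and 0.51 for Jejunum minus Liver, neither called. Its differences across slide sets are therefore given as values only, not as support for the calls. Within slides, Spleen minus Liver had the same sign on slides 1, 2 and 3 for each of the 5 genes, for example -7.80, -8.40 and -8.79 for PCK1 and -9.56, -9.24 and -8.86 for LIPC. The spread of the hepatocyte markers among Spleen arrays, and its part in the Spleen values, was not tested.

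The 6 genes belong to wider lists. The gluconeogenesis list has 9 measured genes, of which 5 were called lower in Jejunum than in Liver (PCK1, FBP1, G6PC, PC and PCK2), 1 higher and 3 not called, with a median of -2.32. PC, the pyruvate carboxylase that feeds PCK1, was 5.14 in Liver and 0.89 in Jejunum on average (-4.25 ± 0.28, adjusted p = 2.7e-12, limma), and was not called between Jejunum and Spleen (0.80, adjusted p = 0.016, limma). PCK2, the mitochondrial form of PCK1, fell by 3.92 from Liver to Jejunum and stood 0.96 above Spleen in Jejunum, a difference that was not called. Thus PCK1, FBP1 and G6PC were called higher in Jejunum than in Spleen while PC and PCK2 were not. This contrast within the list was not tested, and in the authors' deposited table Jejunum minus Spleen was 2.72 for PC and 2.57 for PCK2.

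FBP2, the muscle form of fructose bisphosphatase, ran the other way. It was between 0.93 and 1.74 in Jejunum, while no Liver and no Spleen array was well above background for it. Jejunum was at least 75.7-fold higher than Liver (measured difference 6.96 ± 0.39, adjusted p = 2.0e-13, limma), with the bound taken from the lowest signal well above background on each Liver array. Smooth muscle markers averaged 5.07 in Jejunum, 4.82 in Spleen and -0.27 in Liver, and their part in the FBP2 difference was not tested. The authors' deposited table gave FBP2 a Jejunum minus Liver difference of 0.16, which was not called.

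SLC37A4, KHK, FABP1 and MTTP, singled out after their values were seen, were not called between Jejunum and Liver. KHK, which phosphorylates fructose, had mean levels of 5.21, 4.86 and 0.73 in Liver, Jejunum and Spleen. SLC37A4, which carries glucose 6-phosphate to G6PC, had means of 8.13, 7.89 and 7.97 and so was not called between any of these 3. FABP1, the fatty acid binding protein of liver and gut, had 8.25, 8.49 and -2.66.

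MTTP, which loads lipid onto apolipoprotein B, had means of 5.50, 6.12 and -3.44 in Liver, Jejunum and Spleen. These comparisons share the Jejunum and Liver samples, so they are given side by side only. In the authors' deposited table Jejunum minus Liver was -0.95 for KHK, 0.25 for SLC37A4, -3.58 for FABP1 and -3.18 for MTTP, which is past 2-fold for 2 of these 4 genes.

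Across 13 lists of glucose and lipid metabolism, 180 genes were tested, and 174 without the 6. Of the 174, 34 were called higher and 80 lower in Jejunum than in Liver, with a median of -0.76 beside -0.01 over all genes, of which 17.4% were called higher and 16.0% lower. Between Spleen and Liver 21 were called higher and 109 lower (median -1.82), beside 21.0% and 18.3% of all genes (median 0.11). Between Jejunum and Spleen 79 were called higher and 14 lower (median 0.84), beside 15.4% of all genes in each direction (median -0.14). Counts per list for Jejunum minus Liver, above and below, are to be read beside the 17.4% higher and 16.0% lower of all genes. The lists were chosen with earlier results of these data known.

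**Figure D3:**
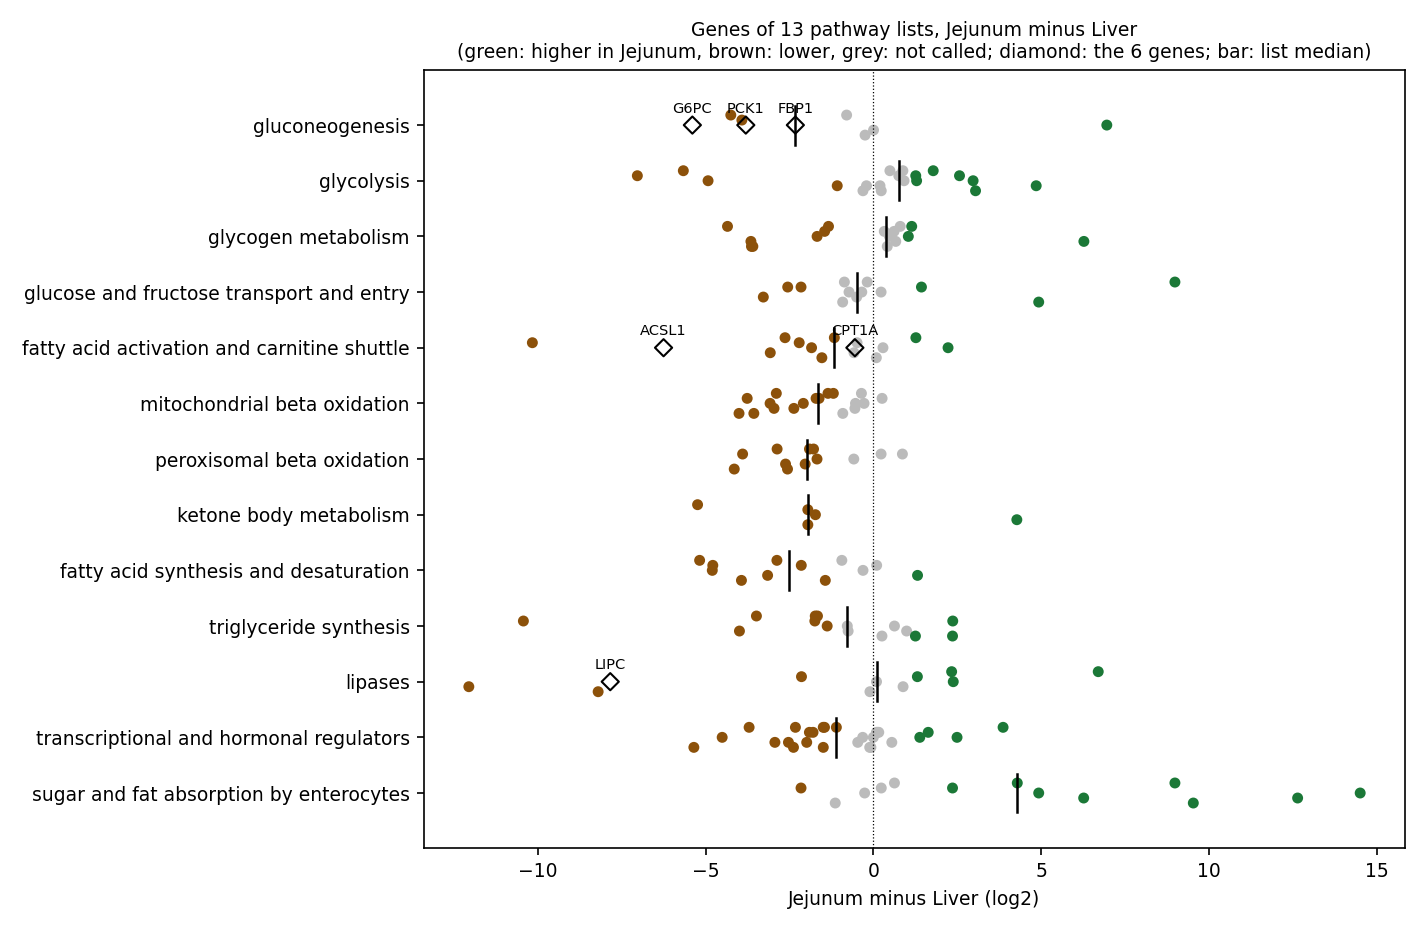
Jejunum minus Liver difference (log2, horizontal axis) of every tested gene in 13 metabolic lists (rows), coloured by call, with the 6 genes as diamonds and the list median as a bar. Mitochondrial and peroxisomal oxidation lie to the left of 0, with medians of -1.66 and -1.97, and sugar and fat absorption to the right with a median of 4.29.

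Transcripts of fatty acid oxidation genes were weighted to Liver. Of 18 mitochondrial beta oxidation genes 12 were called lower in Jejunum and none higher (median -1.66), led by DECR1 (-4.00) and ACAA2 (-3.76), and ACADL, at 0.26, was the closest to 0. The peroxisomal list had 9 of 12 lower and none higher (median -1.97), led by PHYH (-4.14), which oxidises phytanic acid, and the bile acid oxidase ACOX2 (-3.90), with ACOT8 at 0.23. Of the same 18 mitochondrial genes 17 were called lower in Spleen than in Liver, beside 18.3% of all genes. In Jejunum 8 were called higher than in Spleen and none lower, beside 15.4% of all genes in each direction. Around ACSL1 and CPT1A, the list of fatty acid activation and the carnitine shuttle had 8 of 15 genes lower and 2 higher in Jejunum than in Liver (median -1.16). SLC27A5, the bile acid and fatty acid ligase of liver, fell by 10.16 and ACSS2, the acetate ligase, by 3.07, while ACSM3 stood at 0.09.

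The relatives of ACSL1 and CPT1A had other patterns and, like all genes of this paragraph, were picked with their values known. ACSL5 ranged from 4.68 to 5.67 in Liver and from 5.19 to 5.96 in Jejunum, and its difference of 0.29 was not called (adjusted p = 0.25, limma). ACSL3 was called higher in Jejunum than in Liver (1.27 ± 0.32, adjusted p = 0.0015) and ACSL4 lower (-2.21 ± 0.24, adjusted p = 2.9e-08). CPT1B, the muscle form of CPT1A, was called higher in Jejunum (2.23 ± 0.25, adjusted p = 5.6e-08) and in Spleen (2.08) than in Liver, and CPT2, which follows CPT1A on the inner membrane, was called lower in both (-1.53 and -2.80).

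Of 5 ketone body genes 4 were lower in Jejunum and 1 higher. ACAT1, which joins and splits acetoacetyl coenzyme A, fell by 1.73, while OXCT1, which consumes ketone bodies, was higher by 4.28. In the authors' deposited table the ACAT1 difference was -0.88, under 2-fold and not called. In fatty acid synthesis and desaturation 8 of 12 were lower and 1 higher (median -2.51): the desaturase SCD fell by 5.18, FADS2 was at least 17.1-fold lower with no Jejunum array well above background, and MLYCD stood at 0.10. In triglyceride synthesis 7 of 15 were lower and 3 higher (median -0.78), with MOGAT3 at -10.43 and only 1 Jejunum array well above background, GPD1 at -3.99 and GK at 0.26.

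The lipase list, which holds LIPC, had 4 of 11 genes lower and 4 higher (median 0.09). PNPLA3, a lipid droplet lipase, fell by 8.20. ABHD5, the activator of PNPLA2, stood at 0.09. LPL, the lipase of muscle and fat capillaries, was at least 31.6-fold higher in Jejunum than in Liver, the opposite direction to LIPC (chosen after its values were seen).

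Glucose use gave lists that lay on both sides of 0, to be read beside the 17.4% of all genes called higher and 16.0% called lower in Jejunum. In glycolysis 7 of 19 were higher and 4 lower in Jejunum (median 0.76), and the lower ones included GCKR (at least 35.1-fold lower, with no Jejunum array well above background), while PFKFB3 stood at 0.20. In glycogen metabolism 3 of 16 were higher and 7 lower (median 0.37), with the muscle phosphorylase PYGM at least 26.9-fold higher, PPP1R3C, which targets a phosphatase to glycogen, at -4.35, and PHKB at 0.33. Sugar transport and entry had 3 of 13 higher and 3 lower, with the glucose transporter SLC5A1 higher by 8.99, the fructose transporter SLC2A5 at least 12.4-fold higher and SLC2A1 at -0.18.

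Among 27 regulators 14 were lower and 4 higher in Jejunum (median -1.10). KLF15 fell by 5.35 and PDK4, which restrains pyruvate oxidation, fell by 4.50, while SREBF1 was the closest to 0 and its sign changed with the scale. PPARGC1A, a coactivator of gluconeogenic genes, and HNF4A were not called between Jejunum and Liver (0.55 and -0.07), and both were called higher in Jejunum than in Spleen (4.68 and 1.23). The authors' deposited table gave PPARGC1A -1.07 for Jejunum minus Liver and HNF4A 0.75 for Jejunum minus Spleen, the first past and the second under 2-fold. Of 13 genes of sugar and fat absorption by enterocytes 8 were higher in Jejunum and 1 lower (median 4.29, or 3.63 with the genes below background in Liver at their bound), led by FABP2 and SI, at least 6129-fold and 1590.4-fold higher. In the authors' deposited table SLC5A1, SLC2A5, FABP2 and SI were at 0.68, 0.54, 0.77 and 0.51 and were not called.

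Of the 6 genes, PCK1 and FBP1 were called between Peyer and Jejunum, both lower in Peyer. The level of PCK1 was lower in the Peyer sample than in the Jejunum sample of the same animal in 5 of 6 animals (-1.26 ± 0.49, 2.40-fold, adjusted p = 0.042, limma), and FBP1 in 6 of 6 (-1.19 ± 0.26, 2.28-fold, adjusted p = 0.0012, limma). By slide, the PCK1 difference was -1.36, -0.65 and -1.77 on slides 4, 5 and 6, and that of FBP1 was -1.14, -0.73 and -1.70. G6PC was lower in 6 of 6 animals but was not called (-0.60 ± 0.51, adjusted p = 0.35, limma). LIPC (0.41), ACSL1 (0.36) and CPT1A (0.25) were not called. The enterocyte marker mean fell from 6.54 to 5.30 between Jejunum and Peyer, with 4 of 8 markers called lower, none higher and a median difference of -1.15, and its part in these values was not tested.

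Without the Peyer array of animal 71 the difference was -1.68 for PCK1 (adjusted p = 0.0032, limma), -1.48 for FBP1 (adjusted p = 1.8e-06) and -1.01 for G6PC (adjusted p = 0.073). On that array PCK1 was 3.57, against 0.29 to 2.26 on the other Peyer arrays, FBP1 5.04 against 2.70 to 3.86 and G6PC -0.67 against -4.04 to -1.81. These 3 values lay at the upper end of the Jejunum range or, for PCK1, just above it. The PCK1 call was lost when any 1 of animals 68, 69, 70, 73 and 75 was left out (adjusted p from 0.077 to 0.10) and with the median of each array as the scale (-1.08, adjusted p = 0.095, limma). The adjusted p was between 0.053 and 0.057 in limma with no filter on dim probes, in a fit of just the 12 gut arrays, and when slide entered that fit. In the pathway lists 33 of 180 genes were called lower in Peyer than in Jejunum and 5 higher, beside 7.25% and 6.05% of all genes. Their median was -0.47, beside -0.12 over all genes, and 7 of the lower ones were among the 13 of sugar transport and entry.

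**Figure D4:**
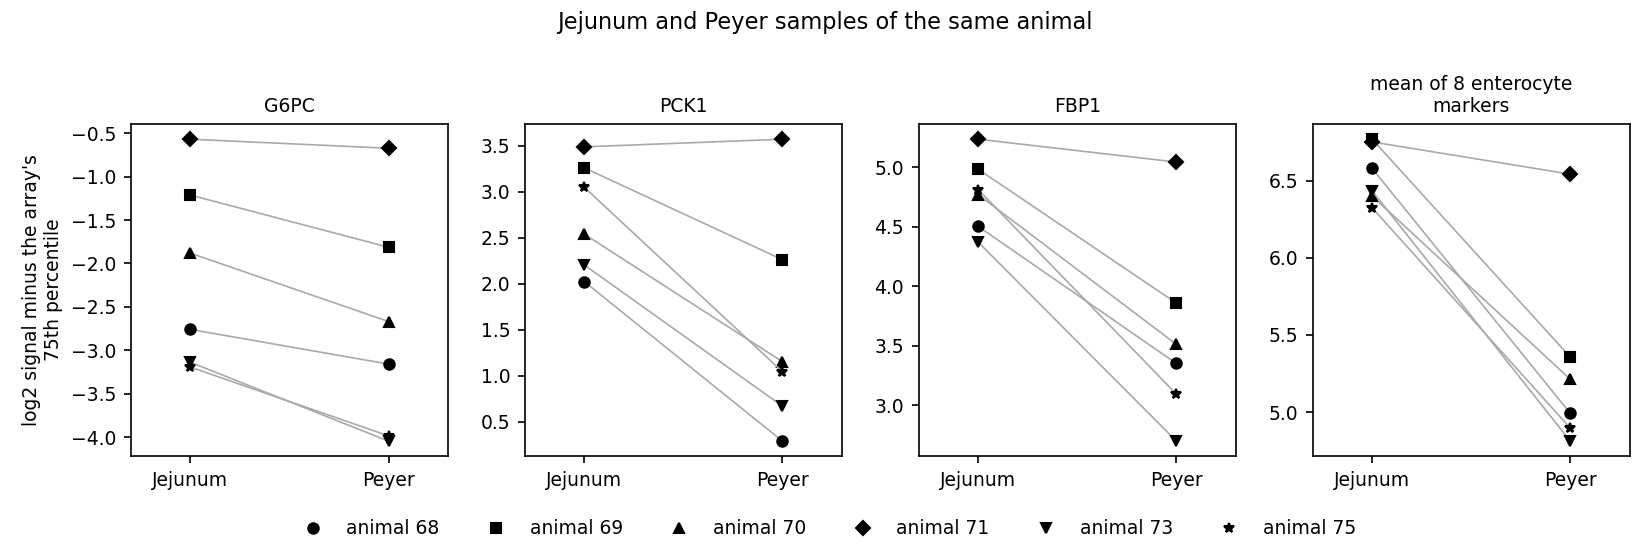
Levels of G6PC, PCK1, FBP1 and the mean of 8 enterocyte markers in Jejunum and Peyer of the same animal (log2 signal minus the 75th percentile of the array), with a line and a symbol per animal. G6PC keeps nearly the same order of animals in both tissues, and the line of animal 71 is nearly flat in each panel.

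Animals that were high for G6PC in Jejunum were high in Peyer. The Jejunum levels of animals 68, 69, 70, 71, 73 and 75 were -2.76, -1.21, -1.88, -0.57, -3.14 and -3.19, and the Peyer levels -3.16, -1.81, -2.67, -0.67, -4.04 and -3.98. Animals 71 and 69 were highest and 73 and 75 lowest in both. Over the 6 animals Pearson's r was 0.986 (exact permutation p = 0.0028, adjusted 0.025 over 18 relations) and Spearman's rho 0.943 (exact permutation p = 0.017, adjusted 0.10). Without animals 69 and 71, farthest from the median, r was 0.944. These 18 relations were computed after the data were seen, each slide holds 2 animals so that no r within a slide can be given, and animals 73 and 75 share the slide that was scanned on another day, whose part was not tested.

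PCK1 had an r of 0.885 between Jejunum and Peyer (exact permutation p = 0.0083, adjusted 0.05; rho 0.943, p = 0.017, adjusted 0.10) and 0.801 without animals 68 and 71. FBP1 had 0.888 (exact permutation p = 0.015, adjusted 0.06; rho 0.829, p = 0.058, adjusted 0.175), and 0.516 without animals 71 and 73, so this relation rests on those animals. Between Liver and Jejunum the r was -0.335 for G6PC (exact permutation p = 0.50; rho -0.314, p = 0.56) and -0.418 for PCK1 (exact permutation p = 0.39; rho -0.543, p = 0.30). No relation between Liver and Jejunum was thus shown for G6PC and PCK1. For CPT1A the r between Liver and Jejunum was 0.919 (exact permutation p = 0.031, adjusted 0.092) and rho 0.543 (p = 0.30). This r was -0.403 without animals 71 and 75, so it rests on those animals. ACSL1 was opposite in Liver and Spleen, with an r of -0.912 (exact permutation p = 0.0028, adjusted 0.025) and -0.810 without animals 71 and 75. Its rho was -0.943 (exact permutation p = 0.017, adjusted 0.10). ACSL1 levels spanned just 0.70 in Liver and 0.60 in Spleen. Every other member had a positive r between Liver and Spleen, from 0.380 for LIPC to 0.809 for CPT1A (exact permutation p = 0.017, adjusted 0.06). Liver and Spleen of an animal share a slide, whose part was not tested. A limma F-test of animal over all 24 arrays called 4.27% of all genes and none of the members, with adjusted p from 0.087 for CPT1A to 0.91 for ACSL1. Without adjustment the same test gave 1 member below 0.05, CPT1A.

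The Liver of animal 75 was at an extreme for 5 of the 6 genes. It had the highest PCK1 (7.75, others 5.60 to 7.60), G6PC (4.25, others 2.49 to 3.75) and CPT1A (3.67, others 1.11 to 2.24), and the lowest FBP1 (6.53, others 7.11 to 7.36) and ACSL1 (6.33, others 6.61 to 7.03). LIPC, at 2.39, lay within the others. Of the 180 pathway genes 71 (39.4%) were lowest in this Liver sample, against 24.0% of all genes, and 33 (18.3%) were highest, against 16.0%. Among the genes chosen after their values were seen, PFKFB3, a kinase that promotes glycolysis, was -0.50 against 2.64 to 3.39 in the other Liver samples. PPP1R3B and PPP1R3C, which target a phosphatase to glycogen, were -3.72 against -0.75 to 0.24 and 1.23 against 3.60 to 4.69. The fatty acid synthase FASN was 6.11 against 7.10 to 8.31 and the desaturase SCD 5.78 against 7.01 to 7.96. The mean of the hepatocyte markers, 8.21, lay within the 8.07 to 8.49 of the other animals.

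Genes with the profile most like each of the 6 were found by the root mean square difference over the 24 arrays, after each gene's own mean was subtracted, among 9435 others. For LIPC they were RDH16 (0.64) and SLC17A4 (0.88), for ACSL1 ADHFE1 (0.32) and FOLR2 (0.43), and for G6PC PFKFB1 (0.78) and GJB1 (0.84). For PCK1 they were CYP2D25 (0.76) and SORD (0.81), for FBP1 CRYZ (0.31) and GSTK1 (0.35), and for CPT1A IMPACT (0.35) and CHD6 (0.37). PFKFB1 had mean levels of 1.75, -6.85, -3.18 and -4.16 in Liver, Spleen, Jejunum and Peyer, the same order as G6PC. SORD, which makes fructose from sorbitol, had 5.68, -2.44, 2.40 and 1.08, the order of PCK1. Among the 6 themselves G6PC and PCK1 were the closest pair (1.03), PCK1 being at rank 11 of the 9435 from G6PC, and CPT1A was the least like each of the other 5, at 2.11 or more.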

How the data were processed

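The deposited scanner files hold intensity values that, per the file headers and the submitters' processing notes, came from Agilent Feature Extraction 10.10.1.1, background-subtracted and not normalized between arrays. The authors' deposited table holds log2 values. Its sorted columns are identical, with a median of 8.24, as quantile normalization gives, and how it was centred is not stated there. Its differences correlated with those of the scanner signals at 0.962 for Spleen minus Liver and 0.956 for Peyer minus Jejunum, but at 0.322 to 0.706 across slide sets (44600 probes), so it served as an alternative.

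Signals were taken as log2 minus the 75th percentile of each array. Of 60305 probes, 42650 were kept, each called well above background throughout the 6 arrays of some tissue and never an outlier. None was saturated. Names came from the file's symbol, description or accession, or a synonym (23127 probes). limma 3.58.1 (R 4.3.3; lmFit, eBayes) was fitted to 24 arrays by tissue, with Benjamini-Hochberg adjustment over the kept probes, and was tested on simulated data. A gene with no array well above background in a tissue has a lower bound as its fold, taken against that tissue's dimmest detected signal per array (or the gene's own signal where this is higher). The replicate numbers are animals and pair the samples: deviations from tissue means had a mean r of 0.17 over 36 same-animal pairs (26 over 0.1) and -0.034 over 180 others. Named genes are the 6, the 2 largest and 1 smallest Jejunum minus Liver differences per list, and 2 like profiles per gene; some of them are not reported here. The members and lists were chosen with earlier results of these data known.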

Additional observations from a re-analysis of the deposited data

Results flagged for a closer look

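In 24 groups of 6 samples (6 genes in 4 tissues), 3 held a sample whose gap to its nearest neighbour exceeded Dixon's limit for 6 samples. Chance alone gives about 1 in 20. LIPC was -2.32 in Peyer of animal 71, where the next sample was at -5.08. This is the array with the low B cell markers, and without it the Peyer minus Jejunum difference of LIPC changed from 0.41 to -0.10. FBP1 was 6.53 in Liver of animal 75, below a next value of 7.11. CPT1A was 1.93 in Jejunum of animal 75, above a next value of 1.59. The same animal had the highest CPT1A in Liver (3.67) and Spleen (2.62), and in Peyer it was at 1.98, below the 2.21 of animal 68.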

How the results depend on the processing

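Over the alternatives run, 631 of the values for the 6 genes kept direction and call, 19 lost the call, 3 gained it and 13 changed sign; for the other named genes these were 620, 6, 0 and 25. The 5 genes called lower than Liver kept their calls in Jejunum, Peyer and Spleen under every alternative that included them. LIPC and G6PC were not well above background on every array, so the restriction to such probes could not test them. The alternatives include the authors' deposited table, whose values for Jejunum and Peyer against Liver are not support for the calls. With animal as a replicate block no count moved by over 1.5 times and no call on the 6 genes changed (pairing by animal: 3169 genes for Jejunum minus Liver against 3159, 1281 for Peyer minus Jejunum against 1255). The cause of the changes below was not tested.

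With the authors' deposited values, 1115 genes were called for Jejunum minus Liver (74 pathway genes, against 119), 1892 for Peyer minus Liver (against 3833), 1878 for Jejunum minus Spleen (against 2903) and 1070 for Peyer minus Spleen (against 2407). Restricted to probes well above background on all 24 arrays, which tests fewer genes, Peyer minus Jejunum gave 803 genes (22 pathway genes, against 38) and Peyer minus Spleen 1604 (45 pathway genes, against 72). For Peyer minus Jejunum, slide 4 alone (4 arrays) gave 101 genes and 0 pathway genes, and slide 5 alone 0 and 0 (limma). At an unadjusted p under 0.05 those were 2846 and 70, and 282 and 7. Array weights gave 59 pathway genes.

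Scaling by the median moved the median of all genes by 0.18 for Peyer minus Jejunum and by 0.27 for Peyer minus Spleen, and the split of calls from 571 higher and 684 lower to 750 and 416, and from 998 and 1409 to 1353 and 926. Quantile normalization gave 639 and 505 for Peyer minus Jejunum, and normexp gave 1299 and 2243 for Peyer minus Liver, against 1812 and 2021. Pathway genes split 8 higher and 23 lower by the median for Peyer minus Jejunum, against 5 and 33.

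Signs changed for CPT1A with the authors' values (Jejunum minus Liver 0.096, Peyer minus Liver 0.33, Peyer minus Spleen 0.093), on slide 3 alone (Spleen minus Liver -0.29) and with the mean of probes (Peyer minus Jejunum -0.11). ACSL1 turned with the authors' values (2.50 for Jejunum minus Spleen, 2.85 for Peyer minus Spleen). LIPC turned for Peyer minus Jejunum with normexp (-0.25), slide 4 alone (-0.037), array weights (-0.17), without the Peyer array of animal 71 (-0.10) and without that animal (-0.06, against 0.44 to 0.55 without any other), and for Peyer minus Spleen with normexp (-0.19). G6PC lost its call for Peyer minus Spleen with normexp (0.69). FBP1 lost its Peyer minus Jejunum call on slides 4 and 5 alone (-1.14 and -0.73), and array weights gave G6PC a call there (-1.32).

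Of the genes near 0 in Jejunum minus Liver, G6PC3 gave -0.019 (median), -0.029 (quantile), -0.14 (normexp) and -0.049 (array weights). With the authors' values PFKFB3 was -0.54, PHKB -0.013, ACADL -0.062, GK -0.53, ABHD5 -0.53 and FABP1 -3.58. With normexp ACSM3 was -0.17, MLYCD -0.20 and SREBF1 0.047, and ACOT8 was -0.011 with the mean of probes. SREBF1 was 0.014 with quantile normalization and 0.062 with array weights. Leaving out 1 animal gave ranges across 0 for G6PC3 (-0.077 to 0.15), PFKFB3 (-0.11 to 0.41), MLYCD (-0.058 to 0.18), ABHD5 (-0.059 to 0.38) and SREBF1 (-0.043 to 0.096). LIPC was well above background on 1 of 6 Spleen arrays, which limits its folds there.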
